A study of Mus musculus with 3 samples.

Results

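The 150 spots described here are those of a young control mouse brain section that scored highest for 4 genes of midline thalamus, Calb2, Gbx2, Necab1 and Ntng1. A spot is one barcoded position of a 10x Genomics Visium array, a small disc of tissue that can hold several cells of different types or part of one. The section, labelled Y-Ctrl, listed 4992 barcodes, of which 3409 held at least 3000 UMIs (unique molecular identifiers, each standing for one captured transcript). Each of those was scored by the sum over the 4 genes of the natural log of 1 plus its counts per 10000, and the 150 highest were taken out of 14976 barcodes in the series. The values of the 4 genes therefore chose the spots and are given as a description.

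The series asks how exercise bears on brain aging and holds 3 spatial libraries, 1 section each, all of C57BL/6J mouse brain cut fresh frozen. Y-Ctrl is labelled as control, O-Ctrl as control and O-Ex as exercise, and Y and O are read as young and old although the labels give no ages. The labels do not give the exercise regimen, sex, number of animals or plane of section. With 1 section per group there is no replicate, and no test was made between groups of spots: spots of 1 section share its tissue, its library and its capture. Intervals given below are exact 95% intervals, Poisson for summed counts and binomial (Clopper-Pearson) for shares, and cover counting error only. Spot positions were not analysed here, so the name midline rests on genes alone.

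The midline and intralaminar nuclei form a thin medial column of the thalamus. They are known for broad projections to cortex, striatum and limbic forebrain and for input from hypothalamus and brain stem, whereas the sensory relay nuclei beside them project to defined cortical areas. Adult thalamic projection neurons use the vesicular glutamate transporter encoded by Slc17a6 and keep the transcription factor Tcf7l2, and rodent thalamus outside its reticular nucleus holds few GABAergic cell bodies. Of the 4 scored genes, Calb2 encodes the calcium-binding protein calretinin, Gbx2 a homeodomain factor of the developing thalamus, Necab1 a neuronal calcium-binding protein, and Ntng1 netrin-G1, an adhesion molecule of thalamocortical axons. In the mm10 build, the GENCODE annotation places Calb2 on chromosome 8 at 110137502 to 110168210, Gbx2 on chromosome 1 at 89927956 to 89931179, Necab1 on chromosome 4 at 14952245 to 15149794 and Ntng1 on chromosome 3 at 109780040 to 110144011, each a protein-coding gene on the minus strand.

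The midline spots held 2611374 UMIs in all, with a lowest, median and highest spot of 3423, 17451 and 38415 UMIs. The 147 comparison spots rich in relay genes, defined below, held a median of 15712 UMIs. The 3259 other spots of the section, also called the rest, held a median of 15694 UMIs. The 147 are among these 3259, so every level given for the rest includes them. The median share of mitochondrially encoded transcripts was 18.6% in midline spots, 20.3% in the relay-rich spots and 20.5% in the others. Gm42418, a transcript that overlaps ribosomal RNA sequence, divided the midline spots: 55 of the 150 held at least 40 counts of it per 10000 and had a median of 8424 UMIs, against 22130 UMIs in the 95 below that. The median score was 6.34 in the 55 and 6.57 in the 95. The upper quartile of Gm42418 was 89.8 counts per 10000 in midline spots, 20.2 in relay-rich spots and 25.7 in the others. The highest relay-rich spot held 53.9, so of these 2 groups the spots at 40 or more lay mostly in the midline group. When spots at or above that Gm42418 level were left out of both groups, a choice made after seeing the data, 554 of the 586 genes given below as at least 2-fold different between midline and relay-rich spots still were.

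Among the scored genes, Calb2 set the midline spots furthest apart from the relay-rich ones. Levels summed over spots are given as CPM, the counts of a gene over a group of spots scaled to the group's total UMIs. Its lowest, median and highest values were 0, 7.52 and 32.0 counts per 10000 in midline spots, against 0, 0 and 4.27 in the relay-rich spots. Gbx2 had 0, 1.72 and 6.60 in midline spots, against 0, 0 and 2.41. Necab1 had 1.31, 5.82 and 19.3 in midline spots, against 0, 0 and 5.04, and was the only scored gene with a UMI in all 150. Ntng1 did not separate the groups: its values were 0, 4.02 and 11.7 in midline spots and 0, 3.97 and 8.74 in relay-rich spots, and its level in the rest of the section was 61.1 CPM, against 426 CPM in midline spots. The ranges of midline and relay-rich spots overlapped for each of the 4 genes. All 4 genes had a UMI in 132 of the 150 midline spots and 3 of them in the other 18. In the rest of the section 60 of 3259 spots had all 4.

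**Figure D1:**
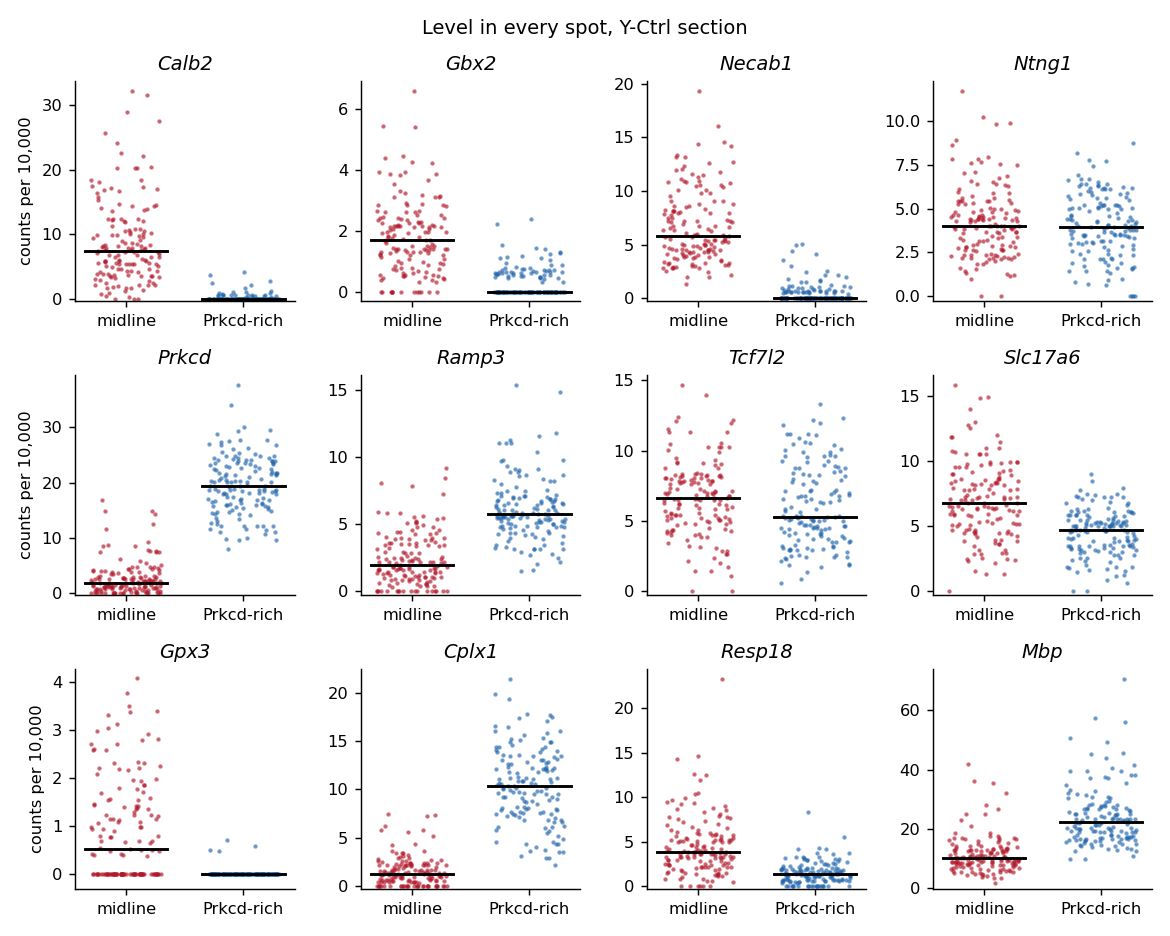
Counts per 10000 in each of the 150 midline spots and the 147 Prkcd-rich spots of the Y-Ctrl section, 1 point per spot, with a bar at the median. Calb2 and Necab1 are high in midline spots and mostly 0 in Prkcd-rich spots, Gpx3 has a UMI in 85 midline and 4 Prkcd-rich spots, Prkcd and Cplx1 are higher in Prkcd-rich spots, and Ntng1 lies at 4.02 and 3.97 in the medians.

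The score fell without a step at the cutoff. The last 5 spots taken scored 5.48, 5.48, 5.47, 5.45 and 5.45, and the first 5 left out scored 5.43, 5.41, 5.40, 5.35 and 5.29. Midline scores ran up to 8.49 with a median of 6.44, and the median of the other spots was 0.803. To see whether each gene was also high in spots chosen by the other 3, the spots were chosen anew without it. The 150 spots chosen without Calb2 shared 120 spots with the midline set and held Calb2 at 791 CPM (757 to 827), against 55.0 CPM in the remaining spots. Without Gbx2 they shared 133 and held Gbx2 at 155 CPM, against 6.81 CPM. Without Necab1 they shared 132 and held Necab1 at 597 CPM, against 85.2 CPM. Without Ntng1 they shared 136 and held Ntng1 at 398 CPM, against 62.6 CPM. Each marker was high in spots picked by the other 3, but these sets shared 120 to 136 spots with the midline set. All 4 genes were read from the same spots and chose them, so this is a description only. Ntng1 also stood at 418 CPM in the relay-rich spots.

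The nearest comparison is with spots rich in Prkcd, Ramp3 and Plekhg1, genes of sensory relay thalamus that encode a protein kinase C, a receptor activity-modifying protein and a guanine nucleotide exchange factor. The 150 spots highest for these 3 genes, scored in the same way, shared 3 spots with the midline set (2% of either set, 0.414% to 5.73%), a share that was 8.67% when scored on thinned spots and 10.8% with 250 spots per set. Each set of 150 was 4.40% of the 3409 scored spots. That share lies inside the interval, so the overlap alone does not show the sets to be distinct. The 147 spots of the second set that were not shared are the relay-rich spots above and are called Prkcd-rich from here on. Prkcd reached 279 CPM (259 to 300) in midline spots and 1970 CPM (1914 to 2027) in Prkcd-rich spots. Ramp3 stood at 223 CPM in midline spots against 609 CPM, and Plekhg1 at 55.9 CPM against 225 CPM. Prkcd was therefore not missing from the midline spots, 131 of which held at least 1 UMI of it, and its highest midline spot, at 17.0 counts per 10000, lay above the lowest Prkcd-rich spot, at 8.02.

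The midline spots carried a thalamic signature. Tcf7l2 stood at 714 CPM (682 to 747) in midline spots, 612 CPM in Prkcd-rich spots and 89.9 CPM in the rest of the section. Slc17a6 stood at 728 CPM (696 to 761) in midline spots, 467 CPM in Prkcd-rich spots and 95.02 CPM in the rest. Of the 150 midline spots, 148 held a UMI of Tcf7l2 and 149 one of Slc17a6. Shares of spots were also compared after every spot was thinned to 3000 UMIs. Tcf7l2 was then found in 88.7% of midline spots and 78.9% of Prkcd-rich spots. As a measure of background, it was found in 3.33% of the 150 spots highest for a myelin gene list and in 0.667% of the 150 highest for a list of telencephalic excitatory neurons. Calb2 was found in 88.7% of midline spots, 3.40% of Prkcd-rich, 3.33% of myelin-rich and 2% of telencephalic spots. At equal depth Calb2 in Prkcd-rich spots therefore stood at the level of those backgrounds. Gbx2 was found in 47.3% of midline spots and 4.08% of Prkcd-rich spots, against 0 of 150 in either background, which allows a share of up to 2% when 3 spots are taken as the floor (exact upper limit 2.43%). The median depths before thinning were 17451 UMIs for midline, 15712 for Prkcd-rich, 10282 for myelin-rich and 35065 for telencephalic spots, and before thinning the Calb2 shares were 98.0%, 18.4%, 6.00% and 18.7% in that order.

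Against the 3259 other spots of the section, 8959 genes averaged 10 CPM or more over both groups, outside the 7 scored genes. Ratios are given as log2 of the ratio of CPM + 5, which understates the change of low genes, and a gene is counted as different when it is at least 2-fold apart. By that measure 357 genes were higher in midline spots (3.98% of those compared) and 291 were lower (3.25%), with a median log2 ratio over all genes of 0.10. The shared thalamic list had 17 of its 22 measured members at least 2-fold higher and none lower, 3 of the 17 being below 10 CPM in the rest. Members that passed 10 CPM only through the group where they were high had to differ, so counts over list members are given as a description throughout. Lhx9, a LIM homeodomain factor, had 81.6 CPM in midline spots against 7.0 CPM in the rest (log2 ratio 2.85). Foxp2, a forkhead factor, had 121 CPM against 15.5 CPM (2.62), and Slitrk6, a synaptic adhesion protein, 85.4 CPM against 7.97 CPM (2.80). Maob, which encodes the amine-degrading enzyme monoamine oxidase B, had 146 CPM against 17.9 CPM (2.72). The other highest genes were Cox6a2, Cbln4, Zcchc12, Col25a1, Car8 and Prkch, with log2 ratios of 2.39 to 2.50. Because the rule used this same contrast, these ratios describe the chosen spots.

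Of the 19 genes of the GABAergic and reticular list 8 passed 10 CPM, and all 8 were at least 2-fold lower in midline spots (3.25% over all genes), 4 of them below 10 CPM there. Gad1, which makes GABA, had 11.1 CPM in midline spots against 193 CPM in the rest, and 21 of the 150 midline spots held a UMI of it. Of 21 telencephalic excitatory genes, 16 were at least 2-fold lower and 1 was higher, with a median of -2.03, beside 3.25% lower and 3.98% higher over all genes. Of the 16, 6 were below 10 CPM in midline spots. Nrgn, a calmodulin-binding protein of forebrain neurons, had 83.1 CPM against 1688 CPM (-4.26), and Itpka, an inositol phosphate kinase, 8.04 CPM against 198 CPM (-3.96). Ttr, the transthyretin of choroid plexus, had 200 CPM against 4156 CPM (-4.35), and Pmch, a peptide precursor of the lateral hypothalamus, 14.9 CPM against 273 CPM (-3.80). Pmch did not stand for its list: of 12 hypothalamus genes measured against the rest 4 were at least 2-fold higher and 4 lower, and the summed list was at 1683 CPM in midline spots against 1204 CPM. Of the 4 lower hypothalamus genes, 3 were below 10 CPM in midline spots. The lowest genes also held Sst and Npy, peptides of interneurons, at 36.0 against 454 CPM and 17.2 against 259 CPM. No midline spot was among the 150 highest of the section for the cortical, hippocampal, striatal, GABAergic, zona incerta, choroid plexus or myelin lists.

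Midline spots were also found among the highest for other thalamic and medial lists. Scored over the 23 members of the midline and intralaminar list that the rule had not used, 50 of the 150 midline spots were among the section's 150 highest, against 9 of the 147 Prkcd-rich spots. For the habenula list 11 midline spots were (7.33%, 3.72% to 12.7%), and for the ependyma list 7 (4.67%, 1.90% to 9.38%), against 0 Prkcd-rich spots in both. Any 150 spots make up 4.40% of the 3409. That share lies inside both intervals, so these 2 overlaps do not set the midline spots apart. For the shared thalamic list the order was reversed, with 13 midline and 93 Prkcd-rich spots. Several genes of that list, such as Rora, Tnnt1 and Adarb1, stood higher in Prkcd-rich spots, as described below.

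Between midline and Prkcd-rich spots, 8775 genes were compared. By the same 2-fold measure 344 genes (3.92%) were higher in midline spots, 242 (2.76%) were lower, 93.3% lay closer together, and the median log2 ratio was 0.03. The highest was Gpx3, a secreted glutathione peroxidase, at 110 CPM (97.2 to 123) in midline spots against 1.68 CPM (0.457 to 4.29), a log2 ratio of 4.10. It had a UMI in 85 of 150 midline and 4 of 147 Prkcd-rich spots.

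Nptxr, a receptor of neuronal pentraxins at excitatory synapses, had 563 CPM in midline spots against 56.2 CPM (log2 ratio 3.21). Cbln4, a cerebellin that bridges synapses, had 149 CPM against 9.22 CPM (3.43). Stxbp6 and Syt17, proteins of membrane fusion and vesicle traffic, had 208 against 14.3 CPM and 81.6 against 2.93 CPM. Fxyd6, a modulator of the sodium pump, had 157 CPM against 8.38 CPM (3.59), and Ldb2, which links LIM homeodomain factors, had 71.2 CPM against 2.52 CPM (3.34). Zcchc12 had 340 CPM against 35.2 CPM, and the noncoding Rmst 46.7 CPM against 1.68 CPM. AI504432 and 6330403K07Rik were also among the 12 highest, with ratios of 3.20 and 2.92.

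**Figure D2:**
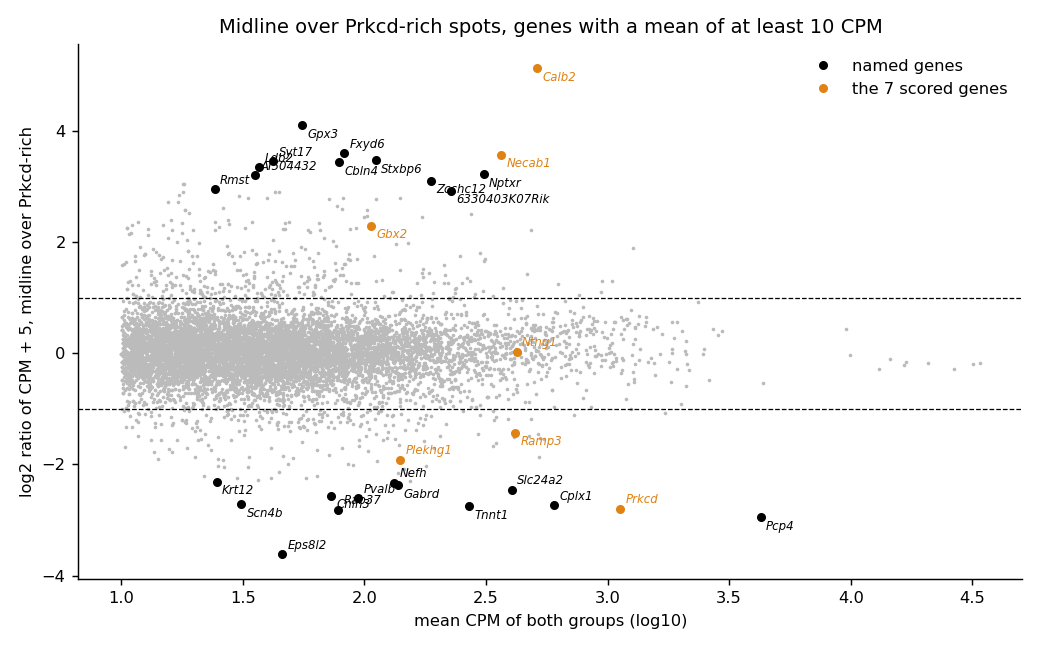
Log2 ratio of CPM + 5 between midline and Prkcd-rich spots against the mean CPM of both groups on a log10 axis, 1 point per gene, for genes averaging 10 CPM or more. Black points are named genes from the 12 highest and 12 lowest with at least 100 counts in the higher group, orange points are the 7 scored genes, and dashed lines mark 2-fold.

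Among the genes lowest in midline spots, Pcp4, a small calmodulin-binding protein, had 971 CPM (934 to 1010) in midline spots against 7547 CPM (7437 to 7658) in Prkcd-rich spots, a log2 ratio of -2.95. Its lowest, median and highest spots were 0, 7.39 and 37.0 counts per 10000 in midline spots, against 21.9, 62.5 and 171 in Prkcd-rich spots, so the ranges overlapped only between 21.9 and 37.0. Cplx1, a complexin of fast transmitter release, had 154 CPM against 1052 CPM (-2.74). Tnnt1, a troponin gene that marks relay thalamus, had 65.5 CPM against 471 CPM (-2.76), and Slc24a2, a sodium, calcium and potassium exchanger, 121 CPM against 685 CPM (-2.46). Eps8l2 was the furthest apart, with 7 counts in midline spots against 213 (-3.62). Rab37, Cnih3 and Krt12 had ratios of -2.81, -2.56 and -2.31.

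Of 20 genes of the Prkcd-rich relay list, 13 were at least 2-fold lower in midline spots and 3 were higher, with a median of -1.51, beside 2.76% lower and 3.92% higher over all genes. The 3 higher ones were Cacng3 (44.0 CPM in midline spots against 4.61), Lypd6b (33.3 against 8.38) and Calb1, the calbindin gene (422 against 191). Of these 3, 2 were below 10 CPM in Prkcd-rich spots, and of the 13 lower, 2 were below 10 CPM in midline spots. Of 23 shared thalamic genes 8 were lower and 2 higher. The relay and shared thalamic lists have members in common, Tnnt1 among them, so their counts are not separate results. Rora, a nuclear receptor of sensory thalamus, had 247 CPM in midline spots against 703 CPM (-1.49) and Adarb1, an RNA-editing enzyme, 271 CPM against 786 CPM (-1.52). Patj, a cell-polarity scaffold, had 47.5 CPM against 228 CPM (-2.15). The 2 higher were the LIM homeodomain genes Lhx2, at 45.2 CPM against 9.64 CPM (1.78), and Lhx9, at 81.6 CPM against 22.2 CPM (1.67). These lists were drawn up with earlier results of the same data known, so their counts are not independent evidence of a direction.

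Of 23 unscored genes of the midline and intralaminar list, 6 passed 10 CPM in this comparison. Of these 3 were at least 2-fold higher in midline spots and none lower, beside 3.92% higher and 2.76% lower over all genes. Of the 3, 1 passed only through its midline level. The summed level of the 23 genes was 2167 CPM in midline spots, 2261 CPM in Prkcd-rich spots and 1731 CPM in the rest. Calb1 was 1 of the 3 higher. Htr7, a serotonin receptor gene, had 39.8 CPM (32.5 to 48.3) in midline spots against 15.5 CPM (10.9 to 21.4), a ratio of 1.13. Col12a1, a collagen gene, had 54 counts in midline spots against 1, a CPM ratio of 49.3 (8.48 to 1984). Slc17a6 had a ratio of 0.64 and Cck, the cholecystokinin gene, of -0.82. Of those below 10 CPM, Drd2, a dopamine receptor gene, had 38 counts against 9, Nts, the neurotensin gene, 28 against 1, Hcrtr1, an orexin receptor gene, 13 against 0, and Avpr1a, a vasopressin receptor gene, 8 against 0. Drd3, Glp1r and Npffr1 had no count in either group.

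Transmitter receptors differed subunit by subunit. In the monoamine, cholinergic and peptide receptor list, 16 of 52 genes passed 10 CPM. Of these 6 were at least 2-fold higher in midline spots and 2 lower, beside 3.92% higher and 2.76% lower over all genes, and 4 of the 6 were below 10 CPM in Prkcd-rich spots. Htr2c, a serotonin receptor gene, had 172 CPM (156 to 189) in midline spots against 27.3 CPM (21.0 to 34.7), a log2 ratio of 2.46, with a UMI in 125 of 150 against 41 of 147 spots. Npy2r, a neuropeptide Y receptor gene, had 28.0 CPM against 1.68 CPM, and Hrh1, a histamine receptor gene, 24.1 CPM against 2.93 CPM. Oprk1, the kappa opioid receptor gene, had 54 counts against 1, a CPM ratio of 49.3 (8.48 to 1984). The 2 lower were Chrna4, a nicotinic receptor subunit, at 45.6 CPM against 114 CPM, and Adra1b, an adrenergic receptor, at 42.5 CPM against 97.3 CPM.

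Among 13 GABA receptor genes that passed, out of 16, 4 were higher and 2 lower (3.92% and 2.76% over all genes), and 2 of the 4 were below 10 CPM in Prkcd-rich spots. Gabra5 had 49.8 CPM in midline spots against 5.45 CPM (2.39), Gabra3 81.9 CPM against 12.2 CPM (2.34), Gabra2 32.5 CPM against 9.22 CPM and Gabrg1 81.2 CPM against 28.1 CPM. Gabrd and Gabra4, subunits that together form extrasynaptic receptors in relay thalamus, had 41.0 CPM against 234 CPM (-2.38) and 204 CPM against 475 CPM (-1.20). The midline spots therefore held more of the alpha-2, alpha-3 and alpha-5 genes and less of the alpha-4 and delta genes. Among 21 glutamate receptor genes, Grin3a (99.6 against 17.6 CPM, 2.21) and Grm2 (73.5 against 21.4 CPM, 1.57) were at least 2-fold higher, and Gria3 (31.4 against 140 CPM, -2.0), Grin2c (-1.17) and Grin2b (-1.16) lower.

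Of 34 potassium channel genes that passed 10 CPM, out of 39, 9 were at least 2-fold lower in midline spots and 4 higher, beside 2.76% lower and 3.92% higher over all genes. All 4 higher genes were below 10 CPM in Prkcd-rich spots, and 1 of the 9 lower was below 10 CPM in midline spots. Kcnc1, a channel that repolarizes fast spikes, had 85.4 CPM against 266 CPM (-1.58). Kcnab3 had 7.28 CPM against 52.8 CPM (-2.24), and Kcnj3, a G-protein-gated channel, 65.9 CPM against 185 CPM (-1.42). The 4 higher were Kcnip1, Kcnc4, Kcnt2 and Kcnq5, with 22.2 to 32.2 CPM in midline spots. Of 27 sodium, calcium and HCN channel genes, 4 were lower, among them Scn4b (4.60 against 57.9 CPM), Scn1a (43.7 against 182 CPM) and Hcn2 (73.9 against 188 CPM). In the same list 5 were higher, beside 2.76% lower and 3.92% higher over all genes. The 5 were led by the sodium channel beta subunit Scn3b at 137 CPM against 17.6 CPM (2.65) and the calcium channel Cacna1e at 32.2 CPM against 3.35 CPM (2.15). Of the 5, 3 were below 10 CPM in Prkcd-rich spots, and of the 4 lower, 1 was below 10 CPM in midline spots.

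Axonal and calcium-binding genes differed in both directions. Nefh and Nefm, the heavy and medium neurofilament genes, had 40.6 against 224 CPM (-2.33) and 52.5 against 239 CPM (-2.09), and Vamp1 48.6 against 260 CPM (-2.30). Gap43, a growth-cone and plasticity protein, had 684 CPM (653 to 717) in midline spots against 251 CPM (231 to 272), a ratio of 1.43. Pvalb, the parvalbumin gene, had 23.0 CPM against 166 CPM (-2.61). Hpcal4, a hippocalcin-like calcium sensor, had 180 CPM against 26.0 CPM (2.57), and Ncald, neurocalcin delta, 357 CPM against 146 CPM (1.26). In the adhesion and axon guidance list 49 of 70 unscored genes passed, of which 10 were higher and 6 lower (3.92% and 2.76% over all genes), and 3 of the 10 were below 10 CPM in Prkcd-rich spots. Cbln2 (45.2 against 5.45 CPM) and Epha5 (92.7 against 21.8 CPM) were among the higher, and Sema7a (28.7 against 114 CPM) and Pcdh9 (68.5 against 175 CPM) among the lower.

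Of the 24 genes of the hypothalamus list 9 passed 10 CPM against Prkcd-rich spots. Of these 7 were at least 2-fold higher in midline spots and none lower, beside 3.92% higher over all genes. Zcchc12 is named above, Nnat (neuronatin) had 248 CPM against 31.4 CPM (2.80), Hap1 (a huntingtin-associated trafficking protein) 112 CPM against 18.0 CPM (2.34), Resp18 483 CPM against 146 CPM (1.69) and the imprinted gene Ndn 235 CPM against 94.7 CPM (1.27). Baiap3 had 93 counts against 1, a CPM ratio of 84.9 (14.9 to 3391), and passed only through its midline level. Pmch, which marks a hypothalamic peptide cell type, was low, at 14.9 CPM in midline and 10.5 CPM in Prkcd-rich spots, and 1 midline spot was among the section's 150 highest for the whole list. The summed level of the 24 genes of the list was 1683 CPM in midline spots, 433 CPM in Prkcd-rich spots and 1204 CPM in the rest.

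Of the glial lists, myelin stood furthest apart. All 16 myelin genes lay below 0 against Prkcd-rich spots, with a median of -0.83, and 4 were at least 2-fold lower, beside 2.76% over all genes. Mbp, myelin basic protein, had 1108 CPM in midline spots against 2326 CPM (-1.07). The lowest, median and highest Mbp spots were 1.84, 10.1 and 41.9 counts per 10000 in midline spots, against 9.86, 22.3 and 70.7 in Prkcd-rich spots, so that the ranges overlapped widely. The summed myelin list stood at 3147 CPM in midline spots, 6389 CPM in Prkcd-rich spots and 7689 CPM in the rest, and its part in the neuronal differences was not tested. In bulk spots, fewer cells of a type and less RNA per cell cannot be told apart. Of 20 astrocyte genes 1 was higher, Itih3 at 123 CPM against 39.0 CPM (1.54), and 1 lower, Unc13c at 17.2 CPM against 46.5 CPM (-1.21). Over all genes 3.92% were higher and 2.76% lower. Agt, the angiotensinogen gene, expressed by astrocytes, had 228 CPM against 118 CPM in Prkcd-rich spots (0.92) and 57.9 CPM in the rest (1.89). None of 12 microglial and none of 12 vascular genes was 2-fold apart, with medians of 0.06 and -0.23, and 93.3% of all genes also lay closer together. The astrocyte, microglial and vascular counts were near the shares over all genes and say nothing about those cells.

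The profile changed gradually down the score. In bands of 50 spots from rank 1 to rank 400, Slc17a6 stood at 790, 707, 660, 575, 502, 374, 313 and 304 CPM. Tcf7l2 held at 653 to 746 CPM through rank 250 and was at 402 to 468 CPM below it, so that the spots just outside the cutoff were still rich in it. Gpx3 stood at 148, 108 and 56.2 CPM within the 150, at 21.5 CPM in the band after and at 30.7 to 44.2 CPM in ranks 201 to 400. The median depth of the spots was 22128, 16314 and 14007 UMIs within the 150 and 14147 UMIs in the band after. Its part in these levels was not tested. Prkcd was lowest in the first band, at 184 CPM, and stood at 280, 416 and 463 CPM in the next 3 and at 753 CPM in ranks 201 to 250. Pcp4 stood at 698, 1005 and 1332 CPM within the 150 and at 1359 CPM in the band after, and Mbp at 912, 972 and 1548 CPM within the 150 and at 1742 CPM after it. The band of ranks 301 to 350 was set apart by habenular genes: Tac2, a tachykinin of the medial habenula, reached 518 CPM there, against 0 to 2.82 CPM within the 150, and Calb2 was at 551 CPM, against 299 CPM in the band before it. The 150 themselves held almost no Tac2.

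**Figure D3:**
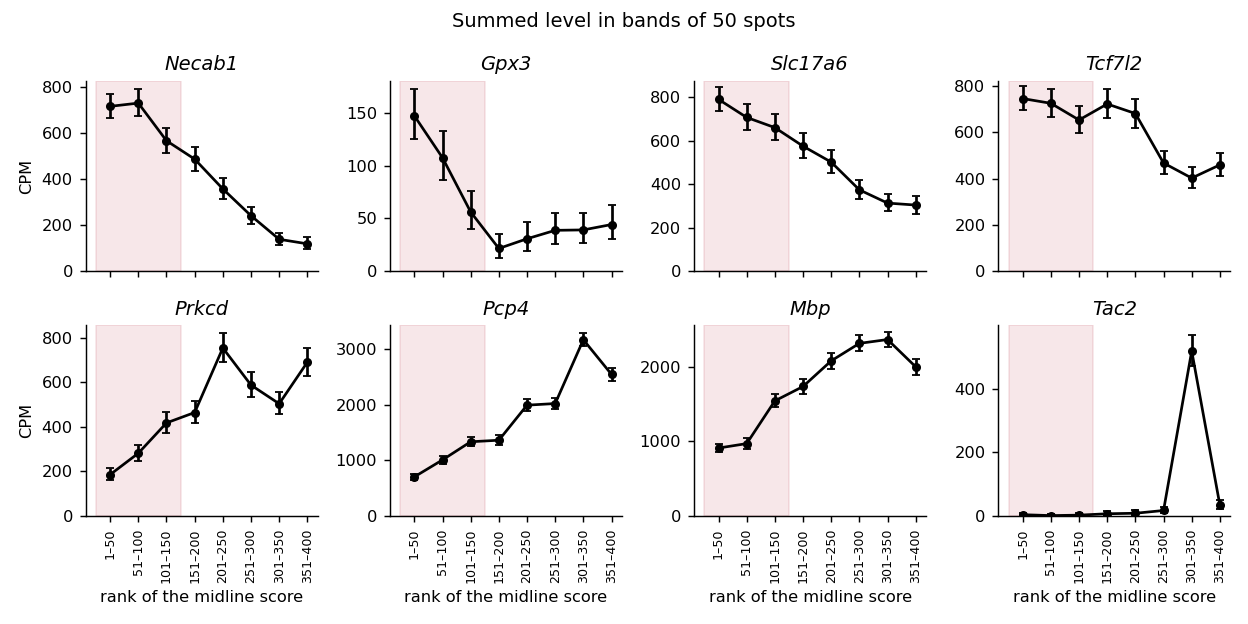
Summed CPM with exact 95% Poisson intervals in bands of 50 Y-Ctrl spots by rank of the midline score, with the 150 midline spots shaded. Slc17a6 and Gpx3 decline across the cutoff, Gpx3 rising again to 44.2 CPM in ranks 351 to 400. Pcp4 and Mbp climb across the cutoff, and Tac2 is highest in ranks 301 to 350, at 518 CPM.

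The midline spots were not uniform. Over 2969 genes with at least 150 counts in them, the overdispersion beyond counting error had a median of 0.0519, and 34 genes reached 0.5. The 4 haemoglobin genes led, and 1 spot held 41.7% of all 2653 haemoglobin counts, the median spot having 6. Prkcd came next, at 1.40 (quartiles 0.851 and 3.61, highest 17.0 counts per 10000), followed by Hopx at 1.23, Tmem255a at 1.23 and, after Gm42418, Apod at 1.18, Slc24a2 at 1.11 and Fxyd6 at 1.07. Across the 150 spots, Calb2 went with Ly6h (Pearson r of log values 0.62), Fxyd6 (0.61), Pcsk1n (0.61), Resp18 (0.52) and Gpx3 (0.48), and against Cck (-0.53), Pcp4 (-0.50), Prkcd (-0.49) and Necab1 (-0.45). Prkcd went with Cck (0.63), Ramp3 (0.54), Pcp4 (0.54) and Rora (0.50), and against Nptxr (-0.55) and Resp18 (-0.50). Gbx2 went with none of these beyond 0.27 in size. Calb2, Gbx2 and Necab1 are parts of the score, and choosing spots by a sum lowers the correlation between its parts, so their r values describe the chosen spots and support nothing further. The points are spots of 1 section and share its library, and their genes' correlations with the log10 UMIs of a spot were 0.13 for Calb2, 0.04 for Prkcd, 0.10 for Necab1, 0.31 for Gpx3 and 0.47 for Tcf7l2.

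**Figure D4:**
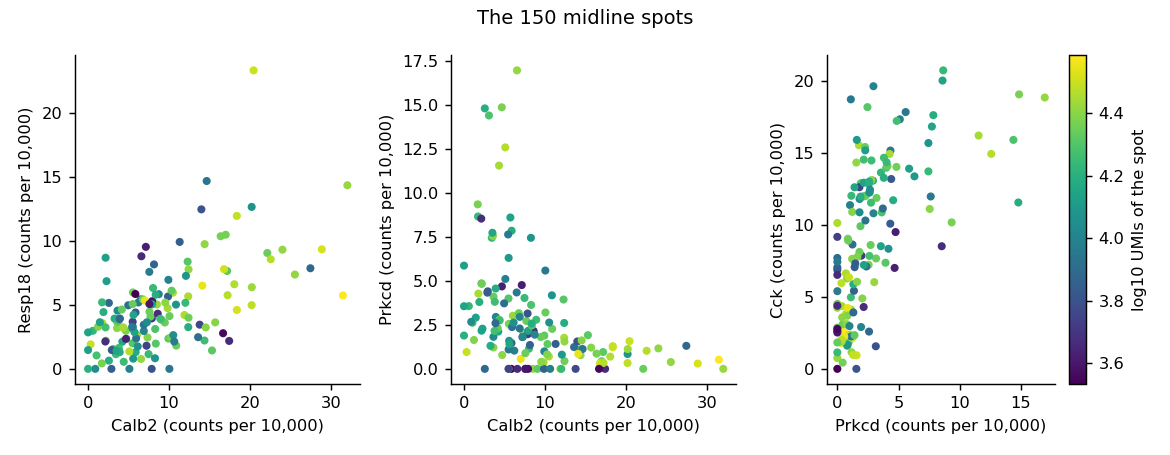
Counts per 10000 in the 150 midline spots, 1 point per spot coloured by the log10 of its UMIs, for Resp18 against Calb2, Prkcd against Calb2 and Cck against Prkcd. Spots high in Calb2 hold little Prkcd, and the few high in Prkcd, up to 17.0, are high in Cck.

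The same score found few such spots in the other sections. The lowest midline score, 5.45, was reached by 150 of 3409 spots of Y-Ctrl by construction, by 11 of 3498 O-Ctrl spots (0.314%, 0.157% to 0.562%) and by 9 of 3332 O-Ex spots (0.270%, 0.124% to 0.512%). When all spots were thinned to 3000 UMIs, 23 O-Ctrl and 23 O-Ex spots passed the Y-Ctrl cutoff found alike. With a minimum of 1000 UMIs 7 and 8 did. The spot at rank 150 scored 5.45 in Y-Ctrl, against 2.99 (O-Ctrl) and 3.13 (O-Ex). Spots past the Y-Ctrl cutoff of the Prkcd, Ramp3 and Plekhg1 score numbered 150 in Y-Ctrl, against 104 (O-Ctrl) and 80 (O-Ex). Tcf7l2 was at 714 CPM in the Y-Ctrl spots, against 884 CPM in the 11 of O-Ctrl and 784 CPM in the 9 of O-Ex. Prkcd stood at 279 CPM in the Y-Ctrl spots, against 837 CPM (O-Ctrl) and 612 CPM (O-Ex). In the order Y-Ctrl, O-Ctrl and O-Ex, Gad1 stood at 11.1, 101 and 52.7 CPM and Nrgn at 83.1, 257 and 283 CPM. Nptxr stood at 563, 101 and 171 CPM, whereas Calb1 lay closer together, at 422, 506 and 369 CPM. The spots past the cutoff therefore did not share 1 profile across the sections. Gpx3 stood at 110 CPM in the Y-Ctrl spots (286 counts), against 6.75 CPM (O-Ctrl, 1 count) and 13.2 CPM (O-Ex, 2 counts). The upper limits of the intervals for Gpx3 were 37.6 CPM (O-Ctrl) and 47.6 CPM (O-Ex), so the size of this difference is poorly known. The plane of each section is not given in the labels, so age, exercise and the level at which the brain was cut cannot be told apart.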

How the data were processed

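The 3 libraries were made with the 10x Genomics Visium kit from 10 µm fresh-frozen sections of C57BL/6J mouse brain, per the labels' protocols, which name the molecule nuclear RNA. The deposited matrices hold raw UMI counts per gene and barcode, made by the authors with Space Ranger, whose version 2.0.0 stands in the file headers, on mm10, per the submitters' processing notes. All 3 list the same 4992 barcodes. Barcodes with at least 3000 UMIs were kept, and no doublet caller was run on spots. Scores, CPM of summed counts, log2 ratios of CPM + 5 and exact 95% intervals were computed in Python 3.11.15 with numpy 2.4.6 and scipy 1.17.1, and TMM factors with edgeR 4.0.16. A floor of 3 counts stands for a count of 0. The calculation was tested on simulated data.

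Named genes were the 12 highest and 12 lowest ratios of each comparison among genes averaging 10 CPM or more with at least 100 counts in the higher group, without scored, mitochondrially encoded and sex-linked genes, plus up to 8 members of each of 34 gene lists. Of 608 list genes 1 was not matched by symbol. Genes of the midline list below 10 CPM are given as counts. Some genes that this rule would name are not reported here. The spots, lists and comparisons were chosen with earlier results of these data known.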

Additional observations from a re-analysis of the deposited data

How the results depend on the processing

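Counts of genes at least 2-fold apart were recomputed under each alternative, against main counts of 344 higher and 242 lower (midline over Prkcd-rich spots) and 357 higher and 291 lower (midline over all other spots). They depended most on the size and the pseudocount. With 20 CPM added they were 176 higher and 112 lower against Prkcd-rich spots and 167 and 166 against the rest. At 1.5-fold they were 874 and 771, and 1042 and 665. At 3-fold they were 141 and 57, and 94 and 140. With 75 spots per set 390 genes were lower than in Prkcd-rich spots, and with 250 spots 148 were. The share of spots held by both sets was 10.8% with 250 spots and 8.67% when scored on thinned spots, against 2% as reported. O-Ctrl had 7 spots past the cutoff with a minimum of 1000 UMIs, and thinned spots gave 23 in O-Ctrl and 23 in O-Ex. Other filters, totals, depth minimums, scores without 1 marker or with markers scaled, and the removal of Gm42418-rich spots or of the spot richest in haemoglobin (both chosen after seeing the data) kept each count within 1.5 times. TMM factors moved log2 ratios by -0.07 against Prkcd-rich spots and -0.10 against the rest. No named gene of the 12 highest and 12 lowest changed its direction under any alternative run. No paired analysis was possible because each group is 1 section. Genes with few counts are limited by depth: a count of 0 in the Prkcd-rich spots allows up to 1.26 CPM when 3 counts are taken as the floor (exact upper limit 1.55 CPM).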

Other observations

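Some genes were concentrated in midline spots, although each had under 100 counts there and so fell outside the rule for named genes. They were chosen after their values were seen. Slc17a8, which encodes a vesicular glutamate transporter of scattered neuron groups, had 94 counts in 54 of the 150 midline spots, or 36.0 CPM (29.1 to 44.1), against 0 counts in Prkcd-rich spots and 2.32 CPM in the rest. Its midline level was 28.6-fold the 1.26 CPM that a floor of 3 counts gives in Prkcd-rich spots, where the exact upper limit was 1.55 CPM. Its level held within the 150, at 37.6, 31.8 and 38.4 CPM in ranks 1 to 50, 51 to 100 and 101 to 150, and was 22.9 CPM in the band after. Calca, the gene of the peptide CGRP, had 80 counts in 37 midline spots, at 30.6 CPM, against 1 count in Prkcd-rich spots and 3.0 CPM in the rest. Its bands stood at 37.6, 37.9 and 12.3 CPM within the 150 and at 4.30 CPM in the band after. In ranks 201 to 250 it was at 20.5 CPM, above the last band within the 150.

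Igkc, the constant region of the immunoglobulin kappa light chain and a transcript of plasma cells, had 95 counts in 53 of the 150 midline spots, at 36.4 CPM (29.4 to 44.5), against 0 counts in Prkcd-rich spots and 44 counts in the other 3259 spots (0.751 CPM). No midline spot held more than 5 of its counts, or 5.26% of them. It followed the score, at 56.4, 30.6 and 13.7 CPM in the 3 bands of the midline set. Over all spots with at least 3000 UMIs of the other sections, Igkc had 41 counts in 34 spots of O-Ctrl and 2516 counts in 238 spots of O-Ex. No cause was tested.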
